A study of Mus musculus with 10 samples.

Results

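The interferon-stimulated genes described here are a list of 39 mouse genes that cells switch on when interferon reaches them: sensors of viral nucleic acid, transcription factors of the pathway and antiviral effectors. They were chosen by name, with earlier results of these data known, and the arrays' accessions were mapped to RefSeq symbols. Of the 39 genes, 36 had a probe and 35 passed the filter on dim probes, out of 14529 named genes and 22182 features tested. Oas1b, Mx1 and Mx2, which RefSeq lists as transcribed pseudogenes in the reference mouse strain, matched no probe, and both probes of Oas1g were well above background on 0 of 10 arrays. Of the 35 tested members, 34 were well above background on all 10 arrays. Oas3 was so on 3 of 6 metformin arrays and 4 of 4 CCl4 arrays, so it passed the filter through the CCl4 group.

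The compared livers came from 6 male mice given metformin with carbon tetrachloride (CCl4) and from 4 male mice given CCl4. All 10 mice were TG221 animals, which carry a miR-221 transgene, on a B6D2F2 background, and all received CCl4, a hepatotoxin, as a 20% (v/v) solution in olive oil 3 times weekly over 14 weeks, beginning at 4 to 6 weeks of age. Metformin, an antidiabetic drug, was dosed at 300 mg/kg every day from 3 weeks after CCl4 had begun, and livers were collected at 24 weeks. Mice without CCl4 or without the transgene were not analysed here, and the promoter that drives the transgene is not given in the sources used here. The labels name the tissue liver and the cell type hepatocellular carcinoma. All 11 hepatocyte markers examined were well above background on every array.

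Type I interferons bind the receptor chains Ifnar1 and Ifnar2, and the kinases Jak1 and Tyk2 then start a signal that ends in a complex with Stat2 and Irf9, which binds interferon-stimulated response elements (ISRE) in the promoters of target genes. Interferon gamma acts through Ifngr1 and Ifngr2 and leads to binding at gamma-activated sites (GAS). In the liver, hepatocytes, Kupffer cells and endothelial cells can all respond to interferon, and the induced proteins block viral replication and shape inflammation.

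RefSeq promoters of build GRCm38.p6 were read for the 29 members that had an entry (37 windows, each from 250 bases before to 50 bases after a transcript start). The ISRE core was searched as GAAA, any 2 bases and GAAA again, and the GAS motif as TTCNNNGAA, on both strands. The ISRE core stood in 51.4% of the members' windows, against 3.44% of all 32851 windows, and GAS in 27.0%, against 8.3%. At least 1 window held the ISRE core in 18 members and GAS in 10 members, while 6 members, Irf7, Irf9, Oasl1, Oasl2, Ifi44 and Xaf1, had neither in these windows. The 250 bases before the start are shown for 5 genes: Irf1 and Rsad2, which had the largest changes in each direction, Stat2 and Irf8, which moved in opposite directions, and Isg15, a classical ISRE gene. All are given 5′ to 3′ along the gene's strand, and capitals mark motif matches.
Irf1, chr11:53769764-53770013, plus strand, GAS: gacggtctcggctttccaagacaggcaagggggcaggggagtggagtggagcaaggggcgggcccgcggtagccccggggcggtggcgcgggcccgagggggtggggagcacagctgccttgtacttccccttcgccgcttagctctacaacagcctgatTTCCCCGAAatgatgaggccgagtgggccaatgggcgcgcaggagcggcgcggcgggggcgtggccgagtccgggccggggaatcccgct
Stat2, chr10:128270248-128270497, plus strand, ISRE core: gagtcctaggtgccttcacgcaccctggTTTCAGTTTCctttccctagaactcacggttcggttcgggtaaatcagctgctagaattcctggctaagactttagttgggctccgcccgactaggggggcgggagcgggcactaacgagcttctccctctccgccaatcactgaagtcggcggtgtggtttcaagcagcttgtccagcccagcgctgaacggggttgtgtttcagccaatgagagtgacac
Rsad2, chr12:26456453-26456702, minus strand, ISRE core: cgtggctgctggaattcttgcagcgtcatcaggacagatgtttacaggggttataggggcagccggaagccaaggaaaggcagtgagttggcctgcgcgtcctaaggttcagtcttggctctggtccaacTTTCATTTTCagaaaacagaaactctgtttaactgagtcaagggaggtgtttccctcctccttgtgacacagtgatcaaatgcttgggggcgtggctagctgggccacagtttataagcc
Irf8, chr8:120736108-120736357, plus strand, 2 GAS motifs: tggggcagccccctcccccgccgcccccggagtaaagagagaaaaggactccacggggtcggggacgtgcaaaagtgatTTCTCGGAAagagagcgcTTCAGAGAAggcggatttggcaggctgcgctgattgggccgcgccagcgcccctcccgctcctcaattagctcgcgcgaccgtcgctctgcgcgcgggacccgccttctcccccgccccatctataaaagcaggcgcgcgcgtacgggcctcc
Isg15, chr4:156200819-156201068, minus strand, 3 overlapping ISRE cores: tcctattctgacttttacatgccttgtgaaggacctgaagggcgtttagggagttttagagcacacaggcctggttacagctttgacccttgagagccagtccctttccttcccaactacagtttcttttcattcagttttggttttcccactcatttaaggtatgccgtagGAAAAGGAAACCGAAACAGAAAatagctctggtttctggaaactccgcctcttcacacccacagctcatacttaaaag
The first base of the GAS motif of Irf1 lies at -90 from the start. That of the ISRE core lies at -222 in Stat2 and at -120 in Rsad2. The GAS motifs of Irf8 begin at -171 and -153, and the ISRE cores of Isg15 at -78, -72 and -66. A match is a run of letters and not a measured binding site. Among members with a promoter entry, the ISRE core was found in 1 of the 3 that were higher with metformin, 2 of the 7 that were lower and 14 of the 18 that did not pass the test described next. GAS was found in 1, 3 and 6 of them. Oas2, Usp18, Iigp1 and Parp14 among the higher members and Dhx58 among the lower had no entry. Most of the higher members are thus missing, and these counts cannot compare the directions.

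Values are log2 signals relative to the 75th percentile of their own array, so 0 is the signal of a probe at that percentile, and levels of different genes cannot be compared. Fold changes set the metformin plus CCl4 mice over the CCl4 mice, and a gene was called at an adjusted p below 0.05 in limma (two-sided, Benjamini-Hochberg over all 22182 features). Each group lay on 1 slide of its own with its own scan day, so slide and metformin cannot be told apart. All 4 CCl4 arrays lay in slide row 1, as did 2 metformin arrays, while the other 4 metformin arrays lay in row 2. Fits with slide row as a covariate and fits of slide row 1 alone therefore estimate the same difference, 2 metformin against 4 CCl4 mice. The replicates are separate mice. These are bulk livers, in which fewer cells of a type and less RNA per cell cannot be told apart.

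The interferon-stimulated genes moved in both directions. With metformin 7 members rose, 8 fell and 20 did not pass the test. Thus 42.9% of the tested members were called, against 47.4% of all named genes and 45.4% of all features, with 20.0% higher against 27.7%, and 22.9% lower against 19.7%. The share called was near that of all genes, and both directions held nearly equal numbers. The members' median log2 fold change was -0.12, against 0.10 for all features and 0.07 for all named genes. Of the members, 15 had a positive and 20 a negative value, and the values ran from -1.59 for Rsad2 to 1.45 for Irf1. In 5 members all 6 metformin mice lay above all 4 CCl4 mice, and in 5 all lay below. Among all named genes the groups did not overlap in 35.9%, with metformin higher in 21.8% and lower in 14.1%. The direction of the calls depended on the scaling: scaled to spike-in transcripts, 1 member was higher (Irf1) and 19 were lower, at a median of -0.64, while the median of all features went to -0.42. Both scalings subtract 1 value per array, which shifts all genes alike. The members' median relative to all features, -0.22, was therefore bound to be the same under both. Over the other alternatives it ran from -0.36 with the mean of all kept probes to -0.08 with normexp background correction.

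**Figure D1:**
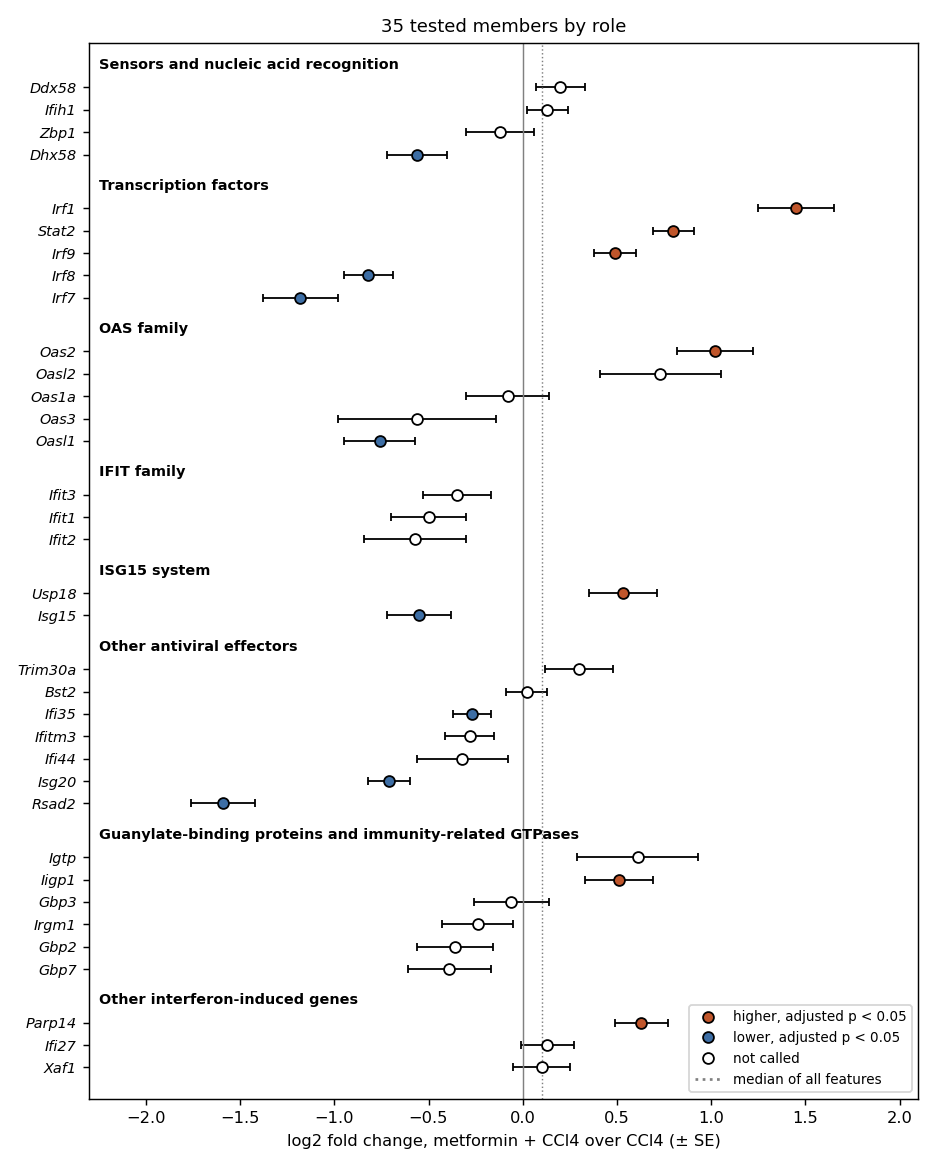
Log2 fold change (metformin plus CCl4 over CCl4) of the 35 tested members with its SE, grouped by role; colour marks the call at an adjusted p below 0.05 in limma. The transcription factors span 1.45 (Irf1) to -1.18 (Irf7), and Rsad2 lies lowest at -1.59.

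The transcription factors had the largest contrasts within 1 role: 3 of 5 rose and 2 fell. Irf1, an activator strongly induced by interferon gamma, had a lowest, median and highest log2 signal of 2.84, 3.52 and 3.85 in metformin mice, against 1.72, 1.99, 2.22 and 2.08 in CCl4 mice 1 to 4. It rose 2.72-fold (log2 fold change 1.45 ± 0.20 SE, adjusted p = 3.41e-04 in limma, n = 6 and 4), with no overlap between the groups. Stat2, a subunit of the ISRE-binding complex, lay at 3.18, 3.48 and 3.61 in metformin mice, against 2.73, 2.63, 2.75 and 2.44 in CCl4 mice. It rose by 0.80 ± 0.11 on the log2 scale (adjusted p = 2.69e-04), again without overlap. Irf9, the DNA-binding subunit of that complex, lay at 3.31, 3.38 and 3.68 in metformin mice and at 2.86, 2.83, 2.89 and 3.22 in CCl4 mice. Irf9 rose by 0.49 ± 0.11 (adjusted p = 0.0046), and CCl4 mouse 4 alone came near the metformin mice. Scaled to spike-ins, the calls of Stat2 (0.27, adjusted p = 0.248) and Irf9 (-0.04, adjusted p = 0.898) were lost, while Irf1 kept its call.

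Irf7, which amplifies type I interferon production, and Irf8, a regulator of macrophages and dendritic cells, moved the other way. Irf7 lay at 0.03, 0.57 and 1.02 in metformin mice, against 1.91, 1.68, 1.54 and 1.71 in CCl4 mice, and fell by 1.18 on the log2 scale (2.27-fold, SE 0.20, adjusted p = 0.00112). Irf8 lay at 0.78, 0.99 and 1.20 in metformin mice, against 1.84, 1.55, 2.04 and 1.78 in CCl4 mice, and fell by 0.82 (1.77-fold, SE 0.13, adjusted p = 5.45e-04). Neither gene's groups overlapped, and both calls held in all 21 alternatives. So did those of Irf1, Isg20 and Rsad2.

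Of the 4 sensors and nucleic acid recognition genes, 1 fell and 3 did not pass. Dhx58 (LGP2), a regulator of the RIG-I-like receptors, lay at 0.47, 0.65 and 1.29 in metformin mice, against 1.32, 1.25, 1.27 and 1.35 in CCl4 mice. It fell by 0.56 ± 0.16 (adjusted p = 0.0145), and metformin mouse 4 was the only one within the CCl4 range. The RNA sensors Ddx58 (RIG-I) and Ifih1 (MDA5) differed by 0.20 (adjusted p = 0.253) and 0.13 (adjusted p = 0.384), and the nucleic acid sensor Zbp1 by -0.12 (adjusted p = 0.622). Their other probes did not all follow. A second, dimmer probe of Ifih1 differed by -1.17 (adjusted p = 9.88e-04) and one of Zbp1 by 0.50 (adjusted p = 0.0461), both over all probes tested.

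The OAS family holds the oligoadenylate synthetases, which make the activator of RNase L, and the related OAS-like proteins. Oas2 lay at 1.09, 1.48 and 2.26 in metformin mice, against 0.48, 0.50, 0.35 and 0.62 in CCl4 mice, and rose 2.03-fold (log2 fold change 1.02 ± 0.20 SE, adjusted p = 0.00233). Oasl1, an inhibitor of Irf7 translation in mice, lay at 3.05, 3.53 and 3.80 in metformin mice, against 4.60, 3.93, 4.17 and 4.18 in CCl4 mice, and fell by 0.76 ± 0.19 (adjusted p = 0.00734). The groups did not overlap for either gene. Oas1a differed by -0.08 (adjusted p = 0.782). Oas3, the chromosomal neighbour of Oas2, differed by -0.56 (adjusted p = 0.301), with metformin mouse 4 at -2.54 and the other 5 between -4.92 and -4.12. Without that mouse its difference was -0.87 (adjusted p = 0.0259), and Oas3 was called in 2 of the 20 alternatives that tested it. Oasl2 differed by 0.73 (adjusted p = 0.0843), and by 0.98 (adjusted p = 0.0271) without CCl4 mouse 4. It was called in 3 of 21 alternatives, with values from 0.20 to 0.98. Spike-in scaling ended the call of Oas2 (0.49, adjusted p = 0.109), and adding slide row as a covariate ended that of Oasl1 (-0.69, adjusted p = 0.0687), as did slide row 1 alone (adjusted p = 0.051).

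All 3 IFIT genes, whose proteins bind foreign RNA ends, had negative differences, and 0 passed in limma, with 1 at an unadjusted p below 0.05. Ifit1 was at -0.50 (adjusted p = 0.0664), Ifit2 at -0.57 (adjusted p = 0.112) and its neighbour Ifit3 at -0.35 (adjusted p = 0.145). Ifit1 reached -0.62 (adjusted p = 0.0147) without metformin mouse 1, and Ifit3 -0.45 (adjusted p = 0.0446) without metformin mouse 4. Over the 21 alternatives Ifit1 and Ifit3 were each called in 3 and Ifit2 in 1. Their values ran from -1.02 to -0.20 for Ifit1, -1.10 to -0.20 for Ifit2 and -0.87 to -0.15 for Ifit3.

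Isg15, the ubiquitin-like modifier, and Usp18, the protease that removes it and also restrains the interferon receptor, moved in opposite directions. Isg15 lay at 2.99, 3.30 and 3.93 in metformin mice, against 3.90, 4.13, 3.69 and 4.04 in CCl4 mice, and fell by 0.55 ± 0.17 (adjusted p = 0.0263). Usp18 lay at 1.43, 1.84 and 2.07 in metformin mice, against 1.53, 1.27, 0.74 and 1.64 in CCl4 mice, and rose by 0.53 ± 0.18 (adjusted p = 0.0359). The groups overlapped for both. The call of Isg15 was lost without metformin mouse 1 or CCl4 mouse 1, 2 or 4 (log2 fold change -0.56 to -0.48, adjusted p = 0.0505 to 0.0771), and a second probe gave -0.40 (adjusted p = 0.117). That of Usp18 was lost without metformin mouse 1, 2, 4, 5 or 6 or CCl4 mouse 2 or 3 (0.34 to 0.53, adjusted p = 0.0553 to 0.093), and its difference was 0.00 scaled to spike-ins. The calls of Isg15 and Usp18 held in 15 and 8 of 21 alternatives.

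Among the other antiviral effectors 3 of 7 fell and 4 did not pass. Rsad2 (viperin), an enzyme that makes a chain-terminating nucleotide, lay at -0.58, -0.30 and 0.03 in metformin mice, against 1.17, 1.60, 1.55 and 0.79 in CCl4 mice. It fell by 1.59 on the log2 scale, 3.00-fold (SE 0.17, adjusted p = 1.02e-04). The neighbouring gene Cmpk2, which encodes a nucleotide kinase, fell by 1.50 (adjusted p = 1.30e-04). Isg20, an exonuclease, lay at 0.96, 1.08 and 1.32 in metformin mice, against 1.65, 1.94, 1.97 and 1.67 in CCl4 mice, and fell by 0.71 ± 0.11 (adjusted p = 5.28e-04). In both Rsad2 and Isg20 every metformin mouse lay below every CCl4 mouse. Ifi35, an interferon-induced leucine zipper protein, lay at 2.73, 2.87 and 3.12 in metformin mice and at 3.15, 3.22, 3.08 and 3.26 in CCl4 mice, and fell by 0.27 ± 0.10 (adjusted p = 0.0401). Its groups overlapped, and the call was lost without metformin mouse 1, 3, 4 or 5 or CCl4 mouse 1, 2 or 4 (-0.28 to -0.24, adjusted p = 0.0665 to 0.0957); it held in 10 of 21 alternatives. The tetherin gene Bst2 differed by 0.02 (adjusted p = 0.884), Trim30a by 0.30 (adjusted p = 0.203) and Ifi44 by -0.32 (adjusted p = 0.316). The membrane protein gene Ifitm3 differed by -0.28 (adjusted p = 0.0954), which was -0.34 (adjusted p = 0.0316) without metformin mouse 4. Ifitm3 was called in 3 of 21 alternatives.

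Of the 6 guanylate-binding proteins and immunity-related GTPases, which attack the vacuoles of intracellular pathogens, 1 rose and 5 did not pass. Iigp1 lay at 3.41, 3.52 and 3.89 in metformin mice, against 3.09, 2.82, 2.80 and 3.66 in CCl4 mice, and rose by 0.51 ± 0.18 (adjusted p = 0.0369). CCl4 mouse 4 lay among the metformin mice, and a second probe differed by 0.03 (adjusted p = 0.905). The call was lost without metformin mouse 3, 4 or 6 or CCl4 mouse 1, 2 or 3 (0.41 to 0.51, adjusted p = 0.053 to 0.11), scaled to spike-ins the value was -0.02, and the call held in 7 of 21 alternatives. CCl4 mouse 4 stood apart in Igtp as well, at 4.25 against 2.83, 2.62 and 2.32 in CCl4 mice 1 to 3, with metformin mice at 3.17, 3.72 and 3.82. Igtp differed by 0.61 (adjusted p = 0.152), and by 1.02 (adjusted p = 0.00145) without that mouse. It was called in 2 of 21 alternatives, with values from 0.08 to 1.02. Irgm1 differed by -0.24 (adjusted p = 0.339), Gbp2 by -0.36 (adjusted p = 0.166), and the neighbours Gbp3 and Gbp7 by -0.06 (adjusted p = 0.831) and -0.39 (adjusted p = 0.168). GBP copies are similar in sequence, and whether a probe measures more than 1 of them was not tested. A second probe of Irgm1 differed by -0.59 (adjusted p = 0.0349).

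Of the other members, Parp14, an ADP-ribosyltransferase, lay at 2.54, 2.79 and 3.00 in metformin mice, against 1.92, 1.92, 2.20 and 2.47 in CCl4 mice. It rose by 0.63 ± 0.14 (adjusted p = 0.00431) with no overlap, which spike-in scaling ended (0.10, adjusted p = 0.753). The mitochondrial protein gene Ifi27 and the apoptosis factor gene Xaf1 differed by 0.13 (adjusted p = 0.475) and 0.10 (adjusted p = 0.643).

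**Figure D2:**
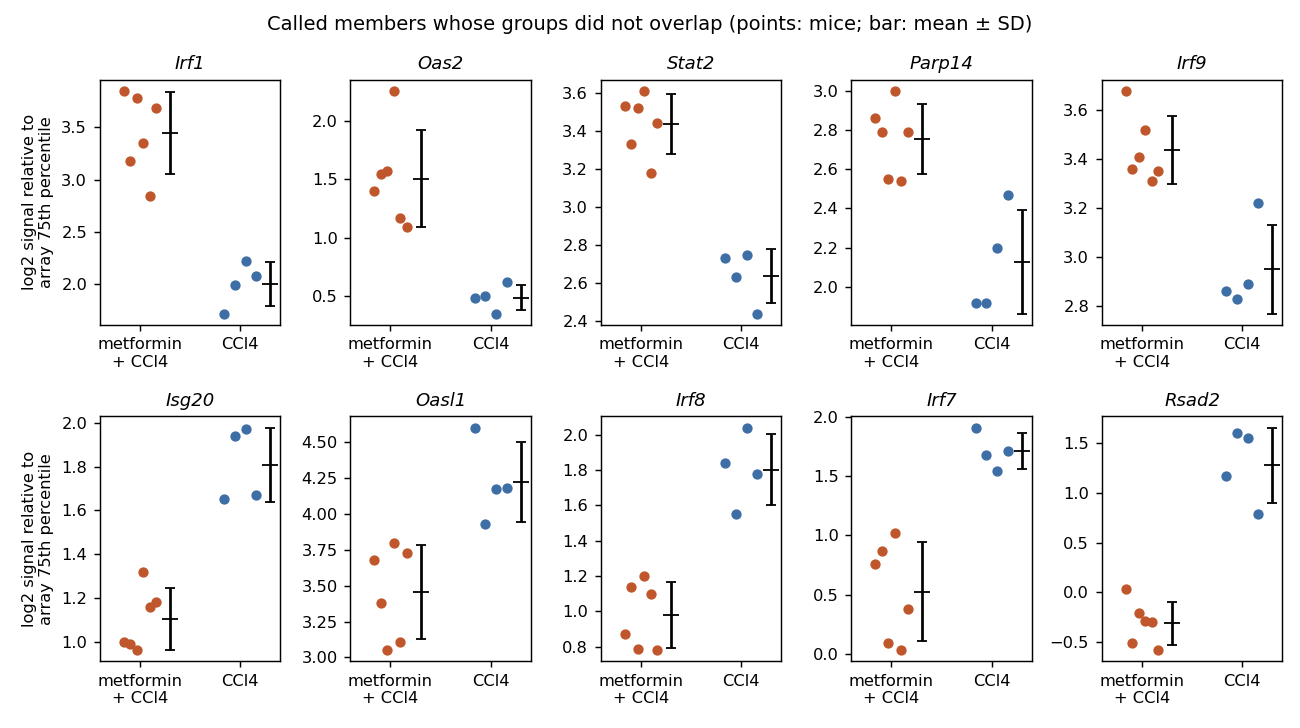
Log2 signal relative to the array's 75th percentile in each mouse (points) for the 10 called members whose groups did not overlap, metformin plus CCl4 left of CCl4, with the mean and SD of each group (bars). Irf1, Oas2, Stat2, Parp14 and Irf9 are higher in metformin mice, and Isg20, Oasl1, Irf8, Irf7 and Rsad2 lower; Rsad2 is at most 0.03 in metformin mice and at least 0.79 in CCl4 mice.

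Most members varied together from mouse to mouse within a group. Over deviations from the group means, a member's correlation with the mean of the other members had a median of 0.63. It exceeded 0.5 in 26 of the 35 members. The same correlation was not computed for other gene lists, so whether it is particular to these members was not tested. Called members below that were Stat2 (0.32), Irf8 (0.23), Ifi35 (0.23), Irf1 (0.08), Isg20 (0.06) and Rsad2 (-0.30). In metformin mouse 4, 33 of the 35 members lay above the metformin mean, with a median deviation of 0.29, and in metformin mouse 5 only 4 did, with a median of -0.26. The other metformin mice had 19, 18, 11 and 18 members above the mean for mice 1, 2, 3 and 6. Among CCl4 mice, 17, 11, 8 and 25 members lay above the group mean for mice 1 to 4, with median deviations of 0.00, -0.04, -0.10 and 0.13. Metformin mouse 4 was high and metformin mouse 5 low within their group. The median deviation of all features, which the scaling of each array itself holds near 0, lay between -0.04 and 0.05. The members' SD had a median of 0.32 in metformin mice and 0.19 in CCl4 mice, against 0.21 and 0.20 for all named genes. It was larger in CCl4 mice for 10 of the 35 members, Igtp and Irgm1 among them. Whether the spread differs between the groups was not tested.

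**Figure D3:**
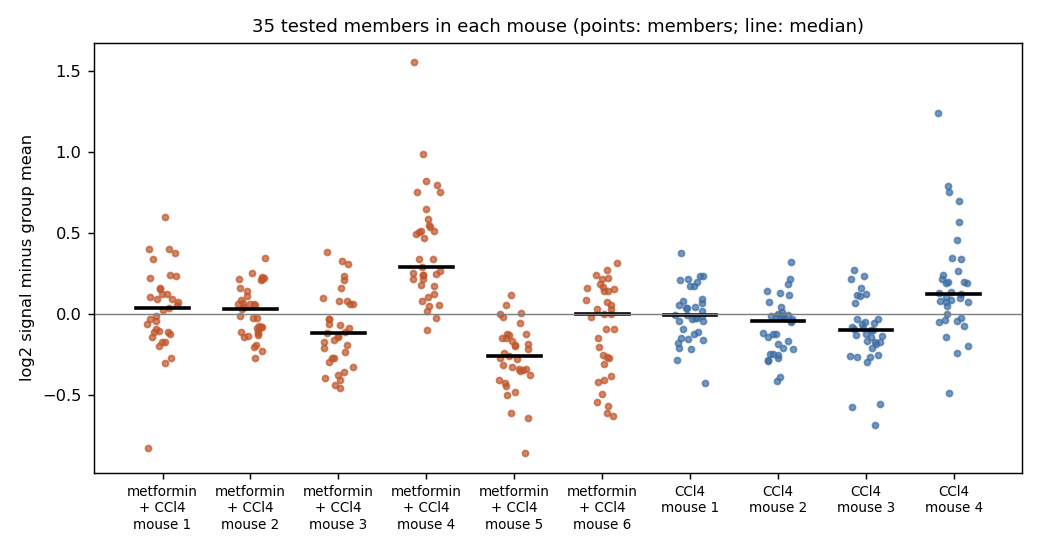
Deviation of each of the 35 members from its group mean (log2) in each mouse, metformin plus CCl4 mice 1 to 6 and then CCl4 mice 1 to 4, with the median. The medians of metformin mice 4 and 5 are 0.29 and -0.26.

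Upstream of these genes, 7 of 24 tested interferon ligands, receptors and JAK-STAT genes rose, 1 fell and 16 did not pass, with a median of 0.09. That is 29.2% higher and 4.2% lower, against 27.7% and 19.7% of all named genes. With the filter on all 10 arrays, 4 were higher and 0 lower. The ligand genes Ifnb1 and Ifng were well above background on no array. The receptor chain Ifnar2 rose by 0.44 ± 0.09 (adjusted p = 0.0039) and Ifngr1 by 0.37 ± 0.09 (adjusted p = 0.00509), with values of -0.09 and -0.15 scaled to spike-ins. Ifnar2 also missed the threshold when slide row was a covariate or slide row 1 stood alone (0.34 in each, adjusted p = 0.0536 and 0.0831), and Ifngr1 after median scaling (0.31, adjusted p = 0.0528). Ifngr2 differed by -0.08 (adjusted p = 0.473). Ifnar1 was at 0.88 (adjusted p = 2.70e-04) by its brightest probe and at -0.64 and -0.57 by the other probes, both called lower, so its direction depended on the probe.

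The interferon genes Ifnk and Ifna7 were at 2.87 (adjusted p = 0.0137) and 2.03 (adjusted p = 0.00176), each well above background on all 6 metformin arrays and 1 of 4 CCl4 arrays. Both thus passed the filter only through the metformin group, where they are high. With normexp background correction they were at 0.70 (adjusted p = 0.0545) and 0.24 (adjusted p = 0.0556). Ifnk was at 1.72 with slide row in the model (adjusted p = 0.201) and with slide row 1 alone (adjusted p = 0.291). Interferon alpha genes are near-identical copies, and whether the probe of Ifna7 separates them was not tested. The interferon lambda receptor gene Ifnlr1 was at least 2.1-fold lower (adjusted p = 1.67e-04), since it was well above background on 0 of 6 metformin and 4 of 4 CCl4 arrays and passed the filter through the CCl4 group. For this bound the CCl4 mean was set against a floor averaged over the metformin arrays, namely the dimmest probe well above background on each or Ifnlr1 itself, whichever was brighter. With normexp the fitted difference was -0.44 (adjusted p = 0.0111), smaller than the bound, so the size of the change depended on the background correction.

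Of 25 adaptors and kinases of nucleic acid sensing, 6 rose, 9 fell and 10 did not pass, with a median of -0.12. That is 24.0% higher and 36.0% lower, against 27.7% and 19.7% of all named genes. Mavs, the mitochondrial adaptor of RIG-I and MDA5, rose by 1.18 ± 0.20 (adjusted p = 9.60e-04), with metformin mice at 3.38, 3.69 and 3.80 and CCl4 mice at 2.26, 2.11, 2.25 and 3.16. The ubiquitin ligase genes Rnf135 and Trim25, which activate RIG-I, rose by 1.08 and 0.62 (adjusted p = 3.05e-04 and 0.0103). Rnf125, a ubiquitin ligase that marks RIG-I and Mavs for degradation, fell by 1.82 ± 0.19 (adjusted p = 7.43e-05), at 3.93, 4.52 and 4.64 in metformin mice and 5.98, 6.34, 6.69 and 5.92 in CCl4 mice. Tank, a scaffold of the Tbk1 kinase, and Tlr7, a receptor for single-stranded RNA, fell by 0.95 and 0.92 (adjusted p = 0.00386 and 0.00117). A second probe of Tank differed by -0.37 (adjusted p = 0.0802), and with slide row 1 alone the value of Tank was -0.43 (adjusted p = 0.0793); a second probe of Tlr7 was also called, at -1.15. Under spike-in scaling Mavs, Rnf135 and Trim25 were at 0.65, 0.56 and 0.09 (adjusted p = 0.0694, 0.0551 and 0.748), and with slide row 1 alone Trim25 missed the threshold (adjusted p = 0.0828).

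Of 47 other type I interferon-induced genes, 13 rose, 13 fell and 21 did not pass. That is 27.7% in each direction, against 27.7% higher and 19.7% lower among all named genes. Trim12c, Trim34a and Slfn8 were at 1.46, 1.28 and 1.06 (adjusted p = 5.70e-04, 0.00476 and 0.00137), with other probes of Trim12c at 0.04 and 0.31 and of Trim34a at 0.19. Spike-in scaling ended the calls of Trim34a (0.75, adjusted p = 0.0904) and Slfn8 (0.53, adjusted p = 0.0869), and the mean of all kept probes that of Trim12c (0.60, adjusted p = 0.052). Lgals9, which encodes galectin 9, Slfn2 and Cmpk2 fell by 0.98, 1.21 and 1.50 (adjusted p = 1.33e-04, 0.0188 and 1.30e-04). CCl4 mouse 1 was high in Slfn2, at 1.73 against -0.13, 0.25 and -0.28 in CCl4 mice 2 to 4, and without it the value was -0.76 (adjusted p = 0.0162). The call of Slfn2 was lost when slide row entered the model or slide row 1 stood alone (-1.35 in each, adjusted p = 0.067 and 0.117), and a second probe of Cmpk2 differed by -0.66 (adjusted p = 0.064). Of 31 other interferon gamma-inducible genes, 5 rose, 6 fell and 20 did not pass. Their shares, 16.1% higher and 19.4% lower, were at or below those of all named genes. Tap1, a peptide transporter of antigen presentation, fell by 0.79 (adjusted p = 6.19e-04) and Gbp9 by 0.70 (adjusted p = 0.0145), which was -0.41 with slide row in the model (adjusted p = 0.207) and with slide row 1 alone (adjusted p = 0.0835). Tgtp1, an immunity-related GTPase, was at -1.55 (adjusted p = 0.00105) but well above background on only 2 of 6 metformin arrays, so it passed the filter through the CCl4 group, and with normexp it was at -0.34 (adjusted p = 0.00834). Gbp6 was at 0.70 (adjusted p = 0.00365) by 1 probe and at -1.41 by the other, also called, so its direction depended on the probe.

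Gbp5 rose by 0.54 (adjusted p = 0.0298), but did not pass when metformin mouse 5, CCl4 mouse 2 or CCl4 mouse 3 was left out (0.48 to 0.52, adjusted p = 0.0553 to 0.0867), and its call held in 12 of 21 alternatives, with 0.02 after spike-in scaling and 0.16 with normexp. Irgm2 was at 0.82 (adjusted p = 0.0495), with metformin mice at 2.70, 2.91 and 3.16 and CCl4 mice at 1.64, 1.68, 1.65 and 3.32. Its call was lost when any mouse other than CCl4 mouse 4 was left out (0.68 to 0.86, adjusted p = 0.0587 to 0.135), and without CCl4 mouse 4 it was 1.23 (adjusted p = 7.64e-05).

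**Figure D4:**
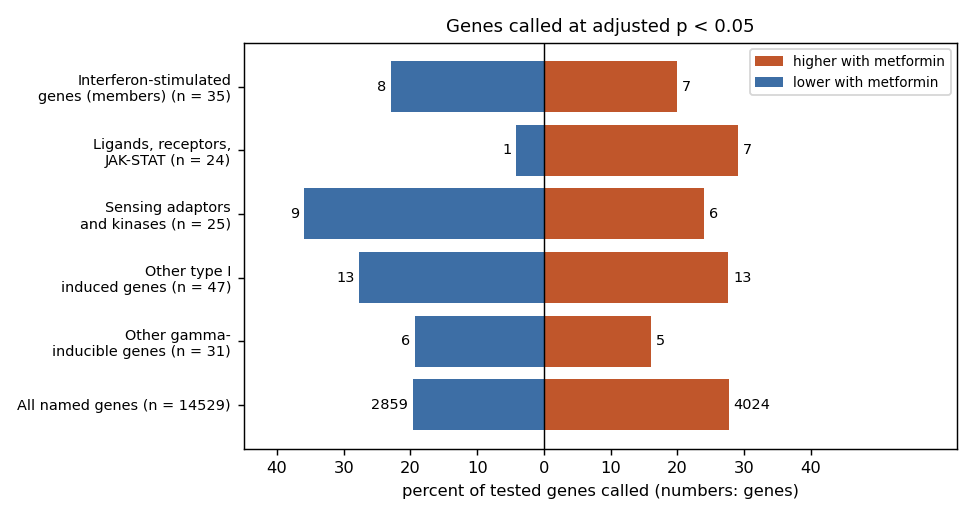
Percent of tested genes called higher (right) or lower (left) in metformin mice (limma, adjusted p below 0.05), for the members, 4 related lists and all named genes, with the number of genes beside each bar. The members have 7 higher and 8 lower of 35, all named genes 4024 and 2859 of 14529.

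Markers of liver cell types were examined beside these genes, and their part in the results was not tested. Among all named genes 27.7% were called higher and 19.7% lower, and the counts in these short lists are to be read against those shares. A list's summed level adds the linear signals of its genes relative to the 75th percentile of the array, so its brightest probes weigh most. Macrophage markers had 4 of 14 lower and 0 higher (C1qb -1.22), with summed levels of 106 to 194 in metformin mice and 148 to 185 in CCl4 mice. Stellate cell markers had 6 of 9 lower and 0 higher (Reln -1.59), at 4.75 to 6.96 in metformin mice and 9.25 to 12.2 in CCl4 mice, without overlap.

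Neutrophil markers had 5 of 9 lower and 0 higher (Retnlg -1.89), at 10.7 to 47.9 in metformin mice and 34.8 to 71.4 in CCl4 mice. Endothelial markers had 4 of 9 lower and 0 higher (Vwf -1.28), at 51.5 to 86.5 in metformin mice and 74.0 to 89.3 in CCl4 mice. Bile duct markers had 3 of 6 lower (Epcam -1.46) and 1 higher (Cftr 0.80), at 2.12 to 10.6 in metformin mice and 6.33 to 13.1 in CCl4 mice. Epcam was well above background on 1 of 6 metformin and 3 of 4 CCl4 arrays, and Krt7 (-1.14) on 4 of 6 and 4 of 4. Both thus passed the filter only through the CCl4 group, where they are high. With the filter on all 10 arrays 1 bile duct marker was lower. The summed levels of these 3 lists overlapped between the groups.

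Plasmacytoid dendritic cell markers, of the cells known for making type I interferon, had 1 of 5 higher (Siglech 0.26) and 0 lower. Their summed levels were 193 to 230 in metformin mice and 164 to 201 in CCl4 mice, mostly from Siglech alone. Its log2 signal was 7.51 to 7.74 in metformin mice and 7.21 to 7.49 in CCl4 mice. Whether this probe measures such cells was not tested. The marker Runx2 was well above background on no array. Conventional dendritic cell markers had 1 of 6 higher (Clec9a 1.37) and 2 lower (Zbtb46 -0.91), at 1.37 to 1.56 in metformin mice and 1.35 to 1.91 in CCl4 mice, with Xcr1 well above background on no array. B and plasma cell markers had 1 of 5 lower (Mzb1 -0.78), at 2.38 to 4.83 in metformin mice and 3.39 to 4.50 in CCl4 mice. The ranges of these dendritic and B cell lists overlapped between the groups, and so did those of T and NK cells and hepatocytes. T and NK cell markers had 0 of 11 called by limma and 1 with an unadjusted p below 0.05, and Ncr1 was well above background on no array. Their summed levels were 28.0 to 50.7 in metformin mice and 34.1 to 46.4 in CCl4 mice. Most of that sum was Cd4, at log2 signals of 4.39 to 5.4 in metformin mice and 4.79 to 5.24 in CCl4 mice. Hepatocyte markers had 3 of 11 lower (Tat -1.36), at 7070 to 9410 in metformin mice and 8430 to 10500 in CCl4 mice.

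The authors' deposited table, which holds 4595 probes, contains 7 of the members. In the authors' deposited table the difference of group means was 1.36 for Irf1 and 0.71 for Stat2, and -0.75 and -1.10 for the 2 probes of Isg20, -0.87 for Irf8, -1.22 for Irf7, -1.62 for Rsad2 and -1.23 for the second probe of Ifih1, on its log2 scale. For the same probes of Irf1, Stat2, Irf7, Irf8 and Rsad2 the signs were those found here. Those values come from the same arrays and from probes the authors selected, so equal signs are no independent support.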

How the data were processed

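Liver RNA of 10 mice was hybridised to Agilent 1-colour arrays, 1 array per mouse; groups and mouse numbers came from the sample titles. The deposited scanner files hold linear spot intensities from Feature Extraction 10.7.3.1 (grid build mm9), background-subtracted per the file headers and not normalized between arrays, together with deposited flags for spots well above background or irregular. A further deposited table gives the authors' log2 values for selected probes, quantile-normalized per the file headers. The arrays carried 55681 probes in 59305 non-control spots, and 51.2% to 54.9% of probes were well above background; 0 spots were saturated and 135 to 179 irregular spots were left out. The array's 75th percentile ran from 237.4 to 362.9, and the number of arrays limits the precision.

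Processed intensities were taken to log2, less the array's 75th percentile, and averaged over the spots of a probe. A probe was kept when 75% or more of the arrays in 1 group showed it well above background. Accessions were matched to RefSeq (GRCm38.p6, names only) for 28664 probes, and a gene is its kept probe with the highest mean over all arrays. Groups were compared with limma 3.58.1 in R 4.3.3 (lmFit and eBayes), Benjamini-Hochberg adjusted over 22182 features. The fitting code was tested on simulated data. Figures were drawn with matplotlib 3.10.9.

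The members and lists were chosen with earlier results of these data known. Values per mouse are given for called members with the 8 largest changes in each direction; Ifnb1, Ifng and the Ifnar and Ifngr chains are always named, and so are the called genes with the 3 largest changes in each direction of each pathway list and the largest of each cell type list; 1 further gene that the rule always names is not reported here. The alternatives were quantile, median and spike-in scaling (7 spike-in probes), normexp with offset 50, no filter or a filter on all 10 arrays, the mean of a gene's probes, array weights, slide row, a replicate block and leaving out each mouse. Normexp was run on median spot intensities, since the files used here hold no mean ones.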

Additional observations from a re-analysis of the deposited data

Results flagged for a closer look

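In 8 of 120 groups of values examined, 1 mouse lay farther from the others than Dixon's critical value allows. Chance gives about 1 in 20 such groups. Among members, metformin mouse 4 was the highest of 6 for Xaf1 (3.17), Gbp3 (0.73) and Oas3 (-2.54), and CCl4 mouse 4 was the highest of 4 for Irf9 (3.22) and Irgm1 (3.61). Among the related genes, CCl4 mouse 4 was the highest of 4 for Irgm2 (3.32) and Mavs (3.16), and metformin mouse 5 the lowest of 6 for Trim12c (-0.57). All values are log2 signals relative to the array's 75th percentile. CCl4 mouse 4 was the mouse that stood apart in 4 of the 8 groups and metformin mouse 4 in 3.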

How the results depend on the processing

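Of the 15 called members, 5 were called in all 21 alternatives. Scaling to spike-ins moved most: it gave 1 member higher and 19 lower with a median of -0.64, 2 higher and 10 lower signalling genes, 0 and 14 sensing genes, 1 and 23 other type I genes and 0 and 16 gamma-inducible genes, and the share of all feature calls that were higher went to 9.84%, against 61.7%. Among genes called under either scaling, signs turned for Irf9 (-0.04), Bst2 (-0.50), Iigp1 (-0.02), Ifnar2 (-0.09) and Ifngr1 (-0.15); among those called under neither, for Ifih1 (-0.40), Ddx58 (-0.33), Trim30a (-0.23), Ifi27 (-0.40) and Xaf1 (-0.43). With the mean of all kept probes the members' median was -0.28, signs turned for Ifih1 (-0.52), Ifnar1 (-0.11) and Gbp6 (-0.35) and, called in neither fit, Zbp1 (0.19) and Xaf1 (-0.06), and 3 gamma-inducible genes were higher. Signalling genes had 2 lower after quantile or median scaling or with array weights, 3 higher with normexp, and 4 higher and 0 lower with the filter on all 10 arrays. Gamma-inducible genes had 3 higher after median scaling and with no filter, where 8 other type I genes were higher. With slide row as a covariate, 3 signalling genes were lower, 8 other type I genes higher and 4 lower, and 1 gamma-inducible gene higher; with slide row 1 alone, 4 signalling, 3 sensing, 8 other type I and 2 gamma-inducible genes were higher and 7 other type I genes lower. Spike-in scaling subtracts 1 value per array, so it lowered all log2 fold changes by about the same amount. Irf1 went from 1.45 to 0.92 and Rsad2 from -1.59 to -2.11. The log2 spike-in signal was 13.02 to 13.33 in metformin mice and 12.42 to 13.08 in CCl4 mice. Why the spike-in signal differed, and the cause of the other moves, was not tested. The filter on all 10 arrays and slide row 1 alone test fewer genes or mice. The 2 slide row alternatives estimate the same difference, so they are not separate checks.

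Mouse numbers did not pair the groups: the deviations of same-numbered mice correlated at -0.14, -0.12, 0.09 and 0.00. With the mouse number as a replicate block 8 members were higher and 5 lower, 4 signalling and 3 gamma-inducible genes were higher, and 5 other type I genes were lower; 12 of the 15 called members were called under it too, and Ifnar2, Ifnk, Tank, Slfn2, Gbp9 and Irgm2 missed the threshold. Leaving out 1 mouse gave 5 to 9 members higher and 6 to 10 lower, a median of -0.24 to -0.03, 6 to 8 signalling genes higher and 1 to 2 lower, 4 to 6 sensing genes higher and 6 to 9 lower, 8 to 14 other type I genes higher and 9 to 13 lower, and 3 to 5 gamma-inducible genes higher and 5 to 6 lower. Without CCl4 mouse 2, 8 other type I and 3 gamma-inducible genes were higher; without CCl4 mouse 3 or metformin mouse 5, 3 gamma-inducible genes were higher; without CCl4 mouse 4, 2 signalling genes were lower. Probes near background, such as those of Oas3, Tgtp1, Ifnk and Ifna7, limit what their folds can show.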
